A study of Homo sapiens and Mus musculus with 24 samples.

Results

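The 10 genes KMT2A, KMT2B, KMT2C, KMT2D, SETD1A, SETD1B, SETD2, NSD1, ASH1L and EHMT1 encode histone methyltransferases, enzymes that add methyl groups to lysines of the histone tails. They were chosen by name, but with earlier results of these data known. All 10 were found by their Ensembl identifiers in the human files, which list 58381 genes, and in the mouse files, which list 53715. Most have a very long open reading frame (ORF). The exception is EHMT1, whose coding sequence of 3894 bases is the shortest of the set, although its exons span 22217 bases in human. In the other 9 genes the coding sequence ranged from 5121 bases in SETD1A to 16659 bases in KMT2D. Of the human protein-coding genes tested, 95.7% had a shorter coding sequence than SETD1A, 99.9% a shorter one than KMT2D and 92% a shorter one than EHMT1.

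The study sequenced RNA from 4 cell types with and without UV irradiation of the living cells, in 3 replicates each, 24 samples in all. HepG2 is a human hepatocellular carcinoma line, HEK293 a human embryonic kidney line, Neuro2a a mouse neuroblastoma line, and HippCulture a primary culture of hippocampal neurons from mouse embryos (E16.5, C57/BL6NCr). Each of the first 3 is a single established line. No genotype or drug separates the groups, so each comparison sets UV-irradiated cells (UPA-seq) against nonirradiated cells (RNA-seq) of the same kind. All 24 libraries were made from RNA depleted of ribosomal RNA. UV light joins RNA to bound proteins by covalent bonds, and joined RNA leaves the aqueous phase in phenol-chloroform extraction, so the assay reads what stays in the aqueous phase. From RT-qPCR set beside northern blots, the paper also proposes that the bonds hinder reverse transcription. In bulk samples such as these, less of a transcript per cell, fewer cells carrying it, a lower recovery in extraction and less reverse transcription cannot be told apart.

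Total counts per sample ran from 6910907 to 53511592, with at least 36573473 in HepG2 and at most 11188033 elsewhere. The 10 genes with the most counts took a larger share of the library after UV in every cell type, with 39.3% to 40.5% against 19.3% to 23.1% in HepG2 and 47.9% to 49% against 22.5% to 24.8% in Neuro2a cells. Fold changes are therefore relative to the other genes of the library and not absolute. The hepatocyte transcript ALB stood at 13711.1 counts scaled to library size (CPM) in nonirradiated HepG2 and the neuroblast transcription factor HAND2 at 116.0 CPM in Neuro2a cells, while NEFL, a neurofilament gene that HEK293 expresses, stood at 422.5 CPM there and at 218.8 CPM in HippCulture. The other 3 markers of the kidney line were low in HEK293 cells, with LHX1 at 4.88, PAX2 at 1.02 and NEFM at 1.01 CPM. The neuroblastoma markers TH and GATA3 were near 0 in Neuro2a cells, at 1.14 and 0.386 CPM. In HippCulture 7 neuron markers summed to 3387.9 to 3781.9 CPM without UV and 1722.6 to 2279.7 CPM with UV. Its 4 astrocyte markers summed to 571.6 to 672.3 CPM without UV and 481.8 to 618.0 CPM with UV, although the study's methods describe a treatment with AraC against glial cells. The part of these cells in the results below was not tested.

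Methylation of histone lysines marks the working state of chromatin. The KMT2 and SETD1 enzymes work in large complexes that share the subunits WDR5, RBBP5, ASH2L and DPY30, and methylate lysine 4 of histone H3, a mark of active promoters and enhancers. KMT2A and KMT2B act at promoters and on developmental genes such as the HOX clusters, KMT2C and KMT2D act mainly at enhancers, and SETD1A and SETD1B at active promoters. SETD2, NSD1 and ASH1L methylate another lysine of the same tail that marks transcribed gene bodies and active domains, and EHMT1 pairs with EHMT2 to methylate a lysine linked to silencing. Several of the genes are causes of neurodevelopmental disorders when a copy is lost.

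The members differ in base composition as well as in ORF length. Exon GC content, over all exon bases of a gene, was 42.4% in SETD2, 44.3% in ASH1L, 44.7% in KMT2A and in KMT2C, 47.1% in NSD1 and 53.8% in EHMT1. In KMT2D it was 58.8%, in SETD1B 61.3%, in KMT2B 61.8% and in SETD1A 62.6%. The mouse genes kept this split, with 43.5% in Setd2 and 44.5% in Ash1l at the low end and 56.7% in Setd1b to 58.3% in Kmt2d at the high end. KMT2B, KMT2D, SETD1A and SETD1B are the 4 members over 55% in both species and are called the GC-rich members here. The other 6 lie below 55% in both species. At the third codon position the contrast was wider, from 34.6% G or C in SETD2 and 37.4% in KMT2C to 71% in SETD1A and 76.9% in SETD1B, but the split did not hold there, since EHMT1 had 71.1%, above KMT2B with 66.3% and KMT2D with 61%.

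The split by exon GC content runs through gene pairs that encode closely related proteins. A stretch of 10 codons is printed for each pair. In each pair the 30 bases below, from hg38 and the coding exons of GENCODE 44, encode the same 10 residues. They are the centre of the longest run of residues that the pair shares, or the nearest place to it inside a single exon. Capitals mark the bases that differ within a pair. The first pair comes from chr11:118522092-118522121 on the plus strand and chr19:35738477-35738506 on the plus strand.
KMT2A: taTaagttccccatTgaggatgccagcaac
KMT2B: taCaagttccccatCgaggatgccagcaac
Here 2 bases differed, both at the third codon position, and G or C made up 46.7% of the stretch in KMT2A and 53.3% in KMT2B. The second pair comes from chr7:152148631-152148660 on the minus strand and chr12:49026780-49026809 on the minus strand.
KMT2C: gacTtggaTctgtgggtCcacTtGaactgC
KMT2D: gacCtggaCctgtgggtGcacCtCaactgT
Here 6 bases differed, 4 of them at the third codon position, and G or C made up 53.3% in KMT2C and 60% in KMT2D. The third pair comes from chr16:30981127-30981156 on the plus strand and chr12:121827801-121827830 on the plus strand, and both of its genes are GC-rich.
SETD1A: cccatTgcTgctgacgagatggtcatcgaA
SETD1B: cccatCgcGgctgacgagatggtcatcgaG
In this pair 3 bases differed, all at the third codon position, and G or C made up 53.3% in SETD1A and 63.3% in SETD1B. By exon GC content the first 2 pairs each hold a GC-rich member and a member that is not, and the third holds only GC-rich members. The stretches alone do not show this split, since those of KMT2B, KMT2C and SETD1A all stood at 53.3%.

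Without UV, levels were compared as RPKM, counts scaled by exon length and by library size. NSD1 varied most between the cell types. It was the highest member in HEK293 cells, at 18.7 ± 0.976 RPKM (SD, n = 3), and Nsd1 the highest in HippCulture, at 13.6 ± 1.69 RPKM. It was the lowest of the 10 in HepG2, at 0.0856 ± 0.0121 RPKM, and stood above Setd1b alone in Neuro2a cells, where Nsd1 held 0.586 ± 0.0508 RPKM and Setd1b 0.393 ± 0.0396 RPKM.

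In HepG2 the order after SETD2, at 8.28 ± 2.83 RPKM, was KMT2A, ASH1L, KMT2C, KMT2D, KMT2B, SETD1A, EHMT1 and SETD1B, and the ranges of all these neighbours overlapped. In HEK293 NSD1 was followed by ASH1L at 8.21 ± 0.379 RPKM and SETD2 at 6.92 ± 0.82 RPKM without overlap between neighbours. SETD2 and KMT2C overlapped, and KMT2A, KMT2B, EHMT1 and KMT2D overlapped one after the other. SETD1A at 1.48 ± 0.45 RPKM and SETD1B at 0.809 ± 0.338 RPKM came last there. In Neuro2a Ehmt1 led at 9.46 ± 0.244 RPKM, above Kmt2c at 7.58 ± 0.207 RPKM, and Kmt2a, Setd2, Ash1l and Kmt2d followed with overlapping neighbours. In HippCulture Nsd1 was followed by Ehmt1 at 8.42 ± 1.01 RPKM, Setd2 at 7.68 ± 0.868 RPKM and Ash1l at 7.55 ± 0.699 RPKM, which overlapped. SETD1B was the lowest or next to lowest member in all 4 cell types. These levels rest on different library depths and, for HepG2, on another sequencer model, and mouse and human values come from separate annotations. EHMT1 counts, for instance, were scaled by 22217 exon bases in human and 8116 in mouse.

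After UV most members had fewer counts relative to the rest of the library. By edgeR's quasi-likelihood test with an adjusted p under 0.05 over all genes tested, 8 of 10 members fell in HepG2, 3 in HEK293 cells, 10 in Neuro2a cells and 6 in HippCulture, 27 of 40 gene and cell type combinations in all. None rose, by edgeR or by DESeq2, and the count of members higher at an unadjusted p under 0.05 was also 0 in each cell type by either tool. The share of all genes tested that fell was 40.7% in HepG2, 26.4% in HEK293 cells, 33.0% in Neuro2a cells and 25.9% in HippCulture, and the share that rose was 38.1%, 24.2%, 28.9% and 26.1%. The 3 of 10 in HEK293 cells comes from the fit without pairing. With the replicate number as a block, which pairs the HEK293 samples by number, 6 fell, against 35.3% of all genes. Neither labels nor methods state such a pairing. KMT2A, NSD1 and SETD2 fell in all 4 cell types. ASH1L, KMT2C and KMT2D fell in 3 each, KMT2B and SETD1B in 2, and EHMT1 and SETD1A in Neuro2a cells only, as far as the calls go.

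For the 10 members the median log2 fold change stood at -0.84 in HepG2, -0.30 in HEK293 cells, -0.90 in Neuro2a cells and -0.33 in HippCulture. Over all genes tested it was -0.08, -0.08, -0.14 and -0.04, and over protein-coding genes alone 0.17, 0.01, -0.03 and 0.05. Every irradiated sample lay below every nonirradiated sample for 8 members in HepG2, 5 in HEK293 cells, 9 in Neuro2a cells and 6 in HippCulture, against 44.9%, 32.1%, 38.1% and 31.5% of all genes tested. An exact two-sided permutation test over the 6 samples of a cell type gave its smallest possible p of 0.1 for these 28 combinations. With 3 samples a group this test cannot go below 0.1.

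**Figure D1:**
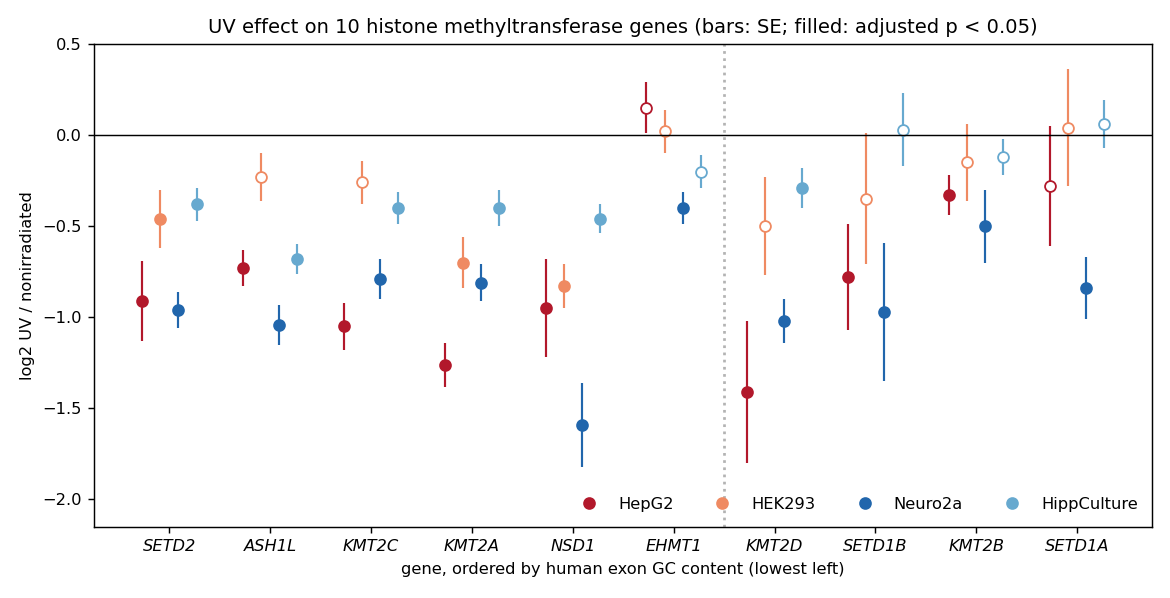
Log2 fold change of UV over nonirradiated counts (y axis) for the 10 genes (x axis, by rising human exon GC content) in the 4 cell types (colours). Bars are standard errors from edgeR with 3 samples a group, filled points passed an adjusted p under 0.05, and the dotted line parts the 6 members under 55% GC from the 4 GC-rich members. The filled points reach from -0.29 for Kmt2d in HippCulture to -1.59 for Nsd1 in Neuro2a cells.

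KMT2A, the founding member of the mixed-lineage leukaemia family, lies at chr11:118436490-118526832 in hg38 (ENSG00000118058.20) and Kmt2a at chr9:44803355-44881296 in mm10 (ENSMUSG00000002028.13). In HepG2 its normalized count was 5050.0, 3686.0 and 4026.4 without UV and 1709.3, 1733.8 and 1659.1 with UV. In HEK293 it was 866.5, 840.5 and 682.1 without UV and 554.8, 439.9 and 475.7 with UV. The groups did not overlap in either line, and the irradiated samples held 40% and 61.5% of the nonirradiated mean. In Neuro2a the values were 585.6, 536.4 and 599.0 against 292.9, 339.2 and 319.2, and in HippCulture 630.4, 572.5 and 564.6 against 501.5, 439.6 and 385.4. Again all irradiated samples were below all nonirradiated samples. The log2 fold change was -1.26 ± 0.12 (SE, adjusted p = 1.3e-05 by edgeR) in HepG2, -0.70 ± 0.14 (adjusted p = 0.0033) in HEK293 cells, -0.81 ± 0.10 (adjusted p = 9.2e-06) in Neuro2a cells and -0.40 ± 0.10 (adjusted p = 0.0017) in HippCulture.

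KMT2B, the paralog of KMT2A with the GC-rich sequence, lies at chr19:35718019-35738878 in hg38 (ENSG00000272333.5) and Kmt2b at chr7:30568858-30588726 in mm10 (ENSMUSG00000006307.16). Its counts moved less. In HepG2 they were 1400.5, 1120.4 and 1120.4 without UV and 842.0, 912.1 and 1012.7 with UV, and the log2 fold change was -0.33 ± 0.11 (edgeR adjusted p = 0.025). The call was lost when the first or the second irradiated HepG2 sample was left out. In Neuro2a they were 176.4, 130.3 and 129.2 against 139.1, 87.9 and 71.1, so that the groups overlapped, with a log2 fold change of -0.50 ± 0.20 (edgeR adjusted p = 0.048). That call was lost without the first nonirradiated sample (-0.33), the second irradiated sample (-0.43) or the third (-0.32), and the value was -0.83 without the first irradiated sample. HEK293, at -0.15 ± 0.21, and HippCulture, at -0.12 ± 0.10, did not pass the test.

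KMT2C lies at chr7:152134922-152436005 in hg38 (ENSG00000055609.17) and Kmt2c at chr5:25271798-25498783 in mm10 (ENSMUSG00000038056.15). The mean normalized count fell from 3454.6 ± 632.5 (SD, n = 3) to 1588.8 ± 20.6 in HepG2, from 810.7 ± 18.2 to 455.0 ± 61.8 in Neuro2a cells and from 799.1 ± 55.7 to 597.3 ± 48.9 in HippCulture. None of these groups overlapped, and the log2 fold changes were -1.05 ± 0.13, -0.79 ± 0.11 and -0.40 ± 0.09. In HEK293 the means were 938.7 ± 59 and 783.7 ± 12.4, again without overlap, but the log2 fold change of -0.26 ± 0.12 missed the threshold (edgeR adjusted p = 0.11). With the replicate number as a block, which pairs the HEK293 samples, it was -0.25 ± 0.08 (adjusted p = 0.0032).

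KMT2D, which has the longest coding sequence of the set, lies at chr12:49018975-49059774 in hg38 (ENSG00000167548.14) and Kmt2d at chr15:98831669-98871204 in mm10 (ENSMUSG00000048154.17). Its HepG2 counts were 6059.2, 1923.9 and 2267.3 without UV and 1191.9, 1205.0 and 1284.2 with UV. The first nonirradiated sample stood far above the other 2, and the groups did not overlap. The log2 fold change was -1.41 ± 0.39 (edgeR adjusted p = 0.0086), and without that sample -0.76 ± 0.05 (adjusted p = 1.1e-19). In HEK293 the counts were 664.5, 422.3 and 419.6 against 522.6, 282.3 and 265.9, the first replicate being the highest in both groups. The unpaired log2 fold change of -0.50 ± 0.27 missed the threshold (edgeR adjusted p = 0.15), lay at -0.25 without the first nonirradiated and -0.84 without the first irradiated sample, and with the replicate block it was -0.52 ± 0.09 (adjusted p = 8.6e-07). In Neuro2a the counts were 656.4, 489.3 and 569.9 against 309.0, 267.0 and 246.5, with no overlap and a log2 fold change of -1.02 ± 0.12 (adjusted p = 7.7e-06). In HippCulture they were 443.4, 356.0 and 390.8 against 347.5, 357.5 and 266.4, with an overlap and a log2 fold change of -0.29 ± 0.11 (edgeR adjusted p = 0.036). The HippCulture call was lost without the first (-0.17) or the third (-0.25) nonirradiated sample, without the third irradiated sample (-0.16) and with DESeq2 (adjusted p = 0.059).

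SETD1A lies at chr16:30957294-30984664 in hg38 (ENSG00000099381.17) and Setd1a at chr7:127776670-127800122 in mm10 (ENSMUSG00000042308.14). In the mouse annotation 51.8% of its exon bases also belong to Gm49388 on the same strand, so reads there were counted for both genes. HepG2 had 958.6, 389.3 and 388.3 normalized counts without UV and 462.9, 450.2 and 443.9 with UV, again with the first nonirradiated sample apart. The log2 fold change was -0.28 ± 0.33 (edgeR adjusted p = 0.45), and leaving out that sample turned it to 0.22 ± 0.08 (adjusted p = 0.013), so no direction can be given for SETD1A in HepG2. HEK293 had 109.1, 64.5 and 59.8 against 116.5, 74.8 and 51.9, with a log2 fold change of 0.04 ± 0.32 (edgeR adjusted p = 0.92). In Neuro2a Setd1a fell, from 108.7, 105.3 and 89.4 to 61.5, 45.5 and 56.9, by 0.84 ± 0.17 on the log2 scale (edgeR adjusted p = 5.7e-04). In HippCulture it held 106.8, 96.8 and 107.8 against 119.2, 98.2 and 100.7, at 0.06 ± 0.13.

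SETD1B lies at chr12:121804180-121832584 in hg38 (ENSG00000139718.10) and Setd1b at chr5:123142193-123168629 in mm10 (ENSMUSG00000038384.16). In HepG2 it held 634.0, 311.4 and 308.2 against 232.8, 199.2 and 261.4 normalized counts, without overlap. The log2 fold change was -0.78 ± 0.29 (edgeR adjusted p = 0.033) and without the first nonirradiated sample -0.41 ± 0.11 (adjusted p = 5.1e-04), and the call was lost without any single irradiated sample. In Neuro2a, at low counts, it fell from 27.3, 22.1 and 25.6 to 10.3, 22 and 4.74, at -0.97 ± 0.38 (edgeR adjusted p = 0.041), a call that held without the second irradiated sample (-1.68) and was lost without any other single sample, with -0.62 when the third irradiated sample was left out. HEK293, at -0.35 ± 0.36, and HippCulture, at 0.03 ± 0.20, did not pass the test.

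**Figure D2:**
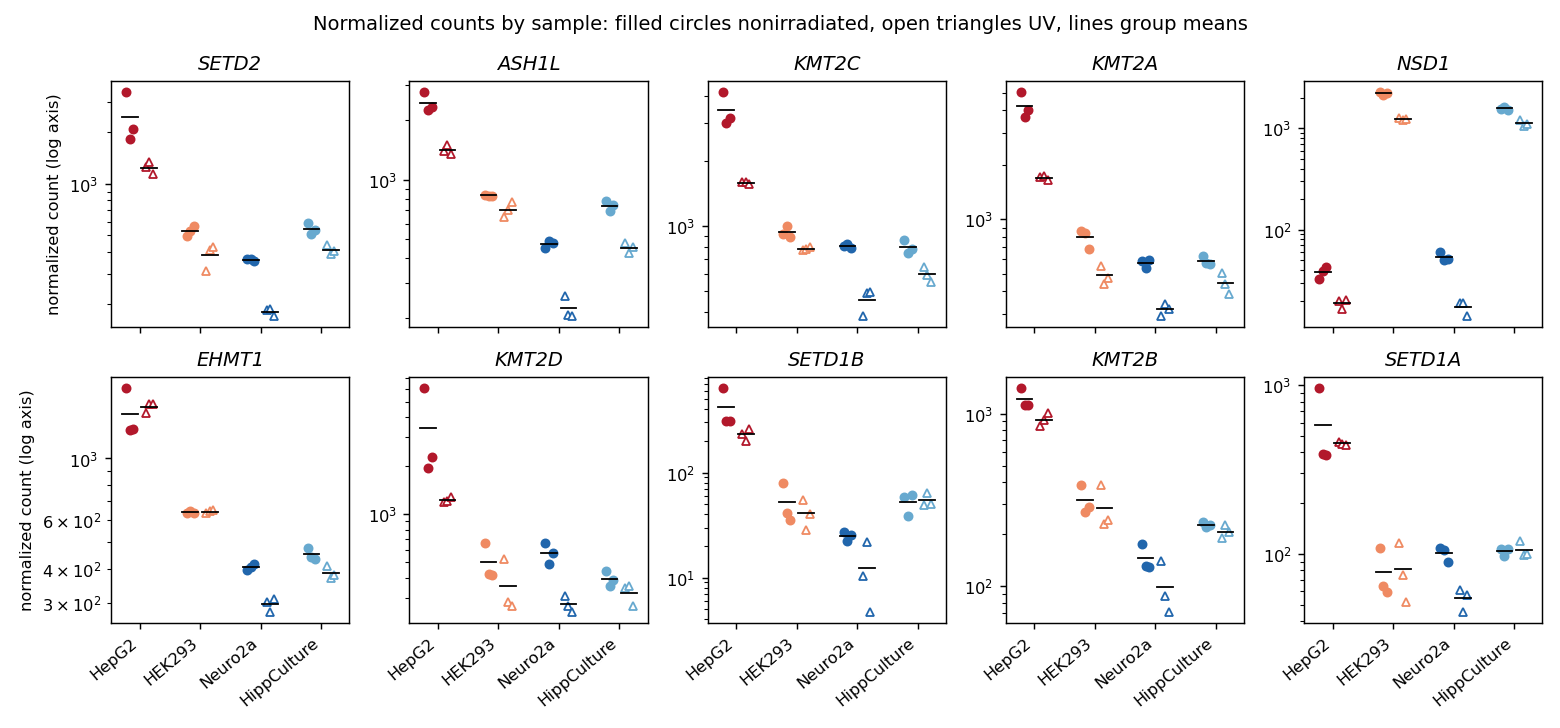
Normalized counts (log y axis, a scale of its own in each panel) of the 10 genes in each of the 24 samples by cell type (x axis, colours). Filled circles are nonirradiated and open triangles irradiated samples, and lines are means of 3. The first nonirradiated HepG2 sample is the highest circle in the panels of KMT2D, at 6059.2, SETD1A, at 958.6, and SETD1B, at 634.0.

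SETD2, the enzyme that travels with elongating RNA polymerase, lies at chr3:47016429-47163967 in hg38 (ENSG00000181555.20) and Setd2 at chr9:110532597-110618633 in mm10 (ENSMUSG00000044791.16). Its groups did not overlap in any cell type. The mean fell from 2440.5 ± 854.0 to 1240.6 ± 103.0 in HepG2, from 531.4 ± 36.1 to 383.1 ± 64.2 in HEK293 cells, from 360.2 ± 5.27 to 179.7 ± 7.9 in Neuro2a cells and from 545.2 ± 40.1 to 412.3 ± 28.1 in HippCulture. The log2 fold changes were -0.91 ± 0.22, -0.46 ± 0.16, -0.96 ± 0.10 and -0.38 ± 0.09. In HEK293 the call (edgeR adjusted p = 0.038) was lost without the second or the third nonirradiated sample and without the first or second irradiated sample, at values down to -0.31. With the replicate block it held (adjusted p = 6.0e-06).

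NSD1 lies at chr5:177133025-177300215 in hg38 (ENSG00000165671.20) and Nsd1 at chr13:55209782-55318325 in mm10 (ENSMUSG00000021488.8). It was present at very different depths, which set the precision of each value. In HEK293 it held 2262.3, 2134.7 and 2214.6 normalized counts without UV and 1267.5, 1213.3 and 1228.0 with UV, and in HippCulture 1549.2, 1629.8 and 1523.2 against 1216.7, 1059.6 and 1108.3. In these 2 cell types the log2 fold changes were -0.83 ± 0.12 (edgeR adjusted p = 4.7e-04) and -0.46 ± 0.08 (adjusted p = 9.8e-05). In HepG2 it held 32.9, 39.5 and 43.2 against 20, 16.7 and 20.1, at -0.95 ± 0.27 (adjusted p = 0.0099), and in Neuro2a cells 59.6, 50.6 and 51.8 against 19, 18.8 and 14.2, at -1.59 ± 0.23 (adjusted p = 4.5e-05). No irradiated sample reached the lowest nonirradiated sample in any of the 4. Nsd1 in Neuro2a cells showed the largest fall of the 40 combinations, to 32.2% of the nonirradiated mean.

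ASH1L lies at chr1:155335268-155562807 in hg38 (ENSG00000116539.12) and Ash1l at chr3:88950622-89079375 in mm10 (ENSMUSG00000028053.13). Its mean fell from 2450.8 ± 274.1 to 1410.5 ± 82.4 in HepG2, from 472.9 ± 18.6 to 223.5 ± 29.7 in Neuro2a cells and from 739.9 ± 39.7 to 453.9 ± 27.6 in HippCulture, where its log2 fold change of -0.68 ± 0.08 was the lowest of the 10. In HEK293 the means were 831.6 ± 4.63 and 704.4 ± 59.3, without overlap. The log2 fold change there was -0.23 ± 0.13 (edgeR adjusted p = 0.16) and, with the replicate block, -0.23 ± 0.08 (adjusted p = 0.0079).

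EHMT1, the member with the shortest coding sequence, lies at chr9:137618963-137870016 in hg38 (ENSG00000181090.20) and Ehmt1 at chr2:24789928-24919614 in mm10 (ENSMUSG00000036893.17). It did not pass the test in either human line. HEK293 had 634.1, 643.9 and 637.2 normalized counts without UV and 633.0, 646.3 and 650.8 with UV, a log2 fold change of 0.02 ± 0.12. HepG2 had 1792.6, 1272.5 and 1280.8 against 1459.3, 1574.8 and 1567.2, at 0.15 ± 0.14 (edgeR adjusted p = 0.33) and, without the first nonirradiated sample, at 0.27 ± 0.05 (adjusted p = 4.9e-06). In Neuro2a it fell from 395.0, 404.4 and 415.2 to 303.1, 279.5 and 311.3, at -0.40 ± 0.09 (adjusted p = 0.0022). HippCulture held 475.4, 439.7 and 435.1 against 410.4, 370.4 and 379.3, without overlap, at -0.20 ± 0.09 (edgeR adjusted p = 0.065).

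Some libraries stood apart in ways that touch these values. For each library the deviation of every coding gene from the mean of its group was compared with exon length and GC content. In the first nonirradiated HepG2 sample the deviation rose with exon length (Spearman's ρ = 0.31), against -0.29 and -0.26 in the other 2, over 13735 coding genes. All members except NSD1 had their highest nonirradiated HepG2 count in it. Without it 8 members fell in HepG2, against 44.4% of all genes tested, while SETD1A and EHMT1 then passed the test as higher. So did 7849 of the 19778 genes tested. In HEK293 the first replicate deviated with GC content in both groups (ρ = 0.08 without and 0.13 with UV) and so did the second (-0.09 and -0.20). In HippCulture the deviations with GC content were -0.26, 0.26 and -0.07 without UV and -0.33, 0.41 and -0.15 with UV. The replicate block took up what same-numbered samples shared. With it 6 members fell in HEK293 cells, namely KMT2A, KMT2C, KMT2D, SETD2, NSD1 and ASH1L, against 35.3% of all genes tested.

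The UV effect differed between the cell types of a species for part of the set. In the interaction term of an edgeR fit over both lines, with a scaling of its own, the effect in HEK293 cells was weaker than in HepG2 for KMT2C by 0.90 ± 0.18 on the log2 scale (adjusted p = 0.007), for KMT2A by 0.66 ± 0.19 (adjusted p = 0.044) and for ASH1L by 0.60 ± 0.16 (adjusted p = 0.035). Of 16759 genes, 4.85% had a significantly higher and 3.10% a significantly lower log2 fold change in HEK293 cells. The difference was positive for 9 of the 10 members, EHMT1 being the exception at -0.03 ± 0.18. For KMT2D it was 1.01 ± 0.52 and did not pass (adjusted p = 0.26). It passed when every gene with at least 1 count was tested (1.05, adjusted p = 1.0e-04), and it was 0.29 without the first nonirradiated HepG2 sample. When each of the 12 samples was left out in turn, the count of members passing lay between 1 and 3. KMT2C passed in all 12, while KMT2A passed only without the second nonirradiated HepG2 or the first nonirradiated HEK293 sample, and ASH1L only without the second nonirradiated HepG2 or the first irradiated HEK293 sample.

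Between the mouse cell types the effect was weaker in HippCulture than in Neuro2a cells for Nsd1 by 1.14 ± 0.23 (adjusted p = 0.0013 in the interaction term of edgeR), for Setd1a by 0.90 ± 0.22 (adjusted p = 0.0047), for Kmt2d by 0.73 ± 0.18 (adjusted p = 0.0061), for Setd2 by 0.58 ± 0.14 (adjusted p = 0.004) and for Kmt2a by 0.42 ± 0.15 (adjusted p = 0.045). All 10 differences were positive. Of 14973 genes, 16.1% had a significantly higher and 8.41% a significantly lower log2 fold change in HippCulture. The call for Kmt2a was lost with DESeq2 (adjusted p = 0.15) and in 8 of the 12 fits with a sample left out, and the count of members passing lay between 4 and 6 in those fits. HepG2 and HEK293 differed in sequencer model and depth, and the mouse pair differed in being a line or a primary culture, so these features and the cell type cannot be told apart.

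Exon length and GC content moved with the UV effect over all coding genes. Spearman's ρ of the log2 fold change with exon length was -0.48 in HepG2, -0.51 in HEK293 cells, -0.53 in Neuro2a cells and -0.51 in HippCulture, over 13119 to 14424 protein-coding genes. With exon GC content it was 0.41, 0.44, 0.39 and 0.47. Coding genes with more annotated exon bases and with a lower exon GC content therefore had lower values. Both features overlapped, since length and GC content themselves had a ρ of -0.30 to -0.35. They are features of all exons of a gene and not of single transcripts. These are descriptions across genes of the same libraries, which are not independent replicates.

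Over the 10 members ρ with exon length was -0.35, -0.28, -0.41 and -0.67 in the order above, and with exon GC content 0.38, 0.45, 0.16 and 0.67. With coding length it was -0.81 in HepG2, -0.49 in HEK293 cells, -0.21 in Neuro2a cells and -0.54 in HippCulture. With 3′ UTR length it was -0.50, -0.76, -0.62 and -0.31, further from 0 than with coding length in HEK293 and Neuro2a cells and nearer in HepG2 and HippCulture. These values rest on 10 genes, among which length and GC content had a ρ of -0.32 in human and -0.15 in mouse.

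**Figure D3:**
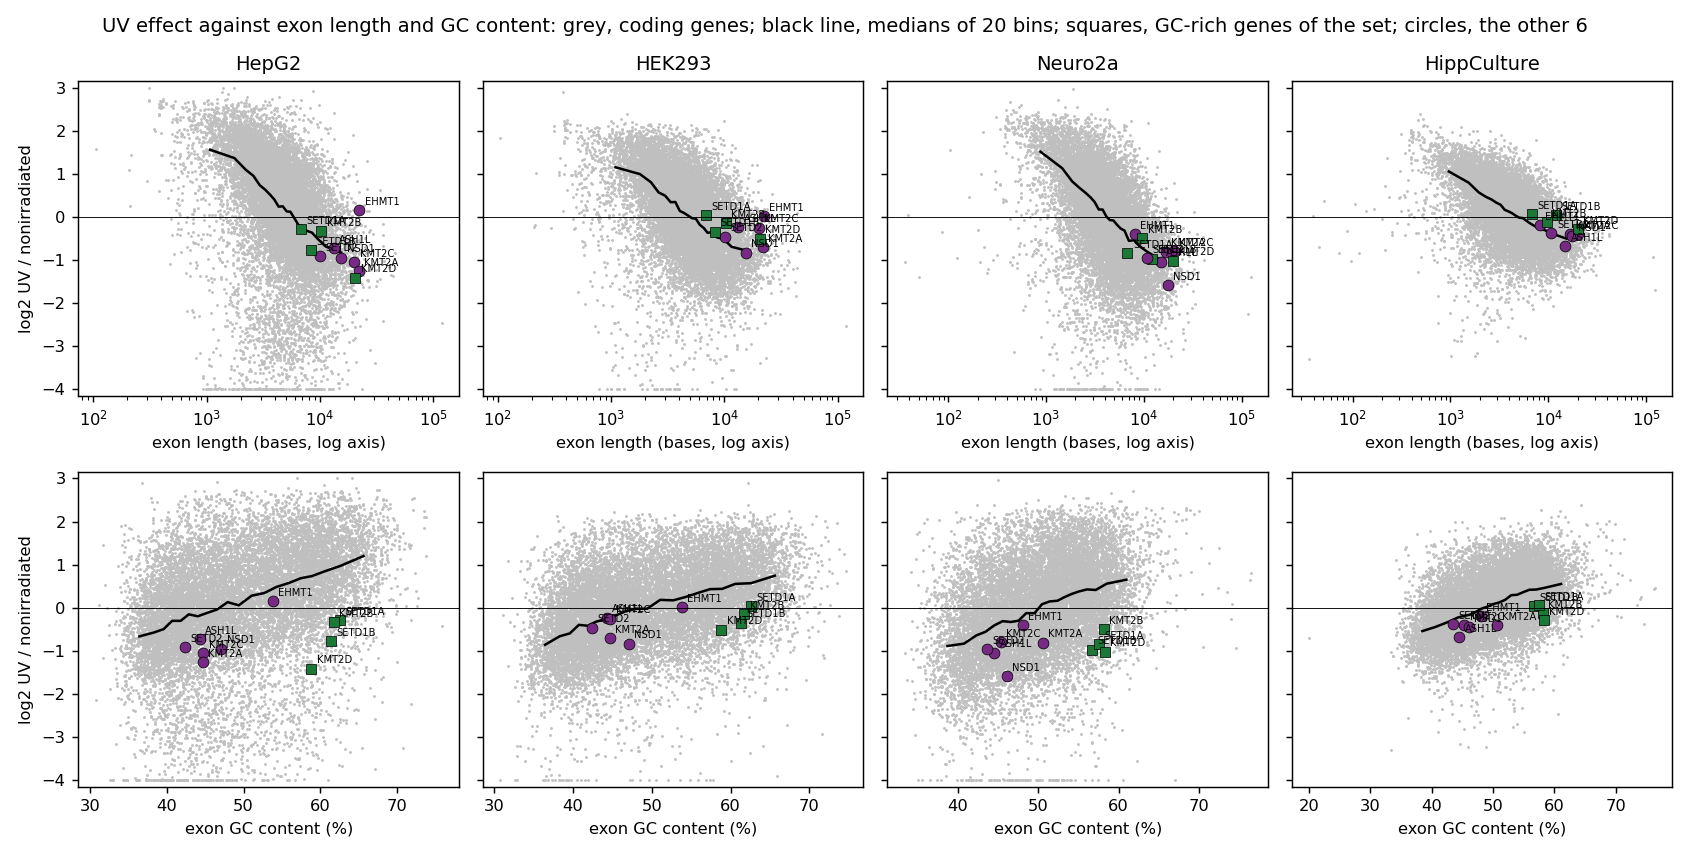
Log2 fold change (y axis) against exon length in bases (top, log axis) and exon GC content in percent (bottom) in the 4 cell types. Grey dots are coding genes, with values beyond the axis drawn at its end, the black line joins medians of 20 equal bins, squares are the 4 GC-rich members and circles the other 6. The members' exons run from 6795 to 22217 bases, and the squares lie between -1.41 and -0.28 in HepG2 and between -0.29 and 0.06 in HippCulture.

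Long ORFs as a class showed the same order by GC content. Among coding genes with a coding sequence of at least 5000 bases and an exon GC content under 50%, the log2 fold changes had a median of -0.95 in HepG2 (375 genes), -0.89 in HEK293 cells (423), -1.08 in Neuro2a cells (316) and -0.42 in HippCulture (354). With a GC content over 55% it was -0.19 (143 genes), -0.23 (172), -0.31 (140) and -0.01 (137). The 4 GC-rich members had medians of -0.55, -0.25, -0.91 and -0.04 and the other 6 had medians of -0.93, -0.36, -0.89 and -0.40. In Neuro2a the members did not follow the split, since the GC-rich members were as low as the others. In HEK293 the median of the 6 other members lay above that of the long genes under 50% GC.

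With exon length and GC content in the fit as offsets, fitted to each sample's smooth trend on both over all genes, the members changed places in HepG2. KMT2A moved from -1.26 to -0.15 ± 0.07 in HepG2, KMT2C from -1.05 to 0.01 ± 0.08, ASH1L from -0.73 to 0.15 ± 0.08 and SETD2 from -0.91 to -0.04 ± 0.18, and none of these passed the test any more. SETD1A moved the other way, from -0.28 to -1.03 ± 0.31 (edgeR adjusted p = 0.013), and so did KMT2B, from -0.33 to -0.88 ± 0.10 (adjusted p = 2.5e-05), and SETD1B, from -0.78 to -1.37 ± 0.26 (adjusted p = 8.9e-04). KMT2D stayed, at -1.38 ± 0.31 (adjusted p = 0.0026). All 4 GC-rich members and none of the others were thus called lower in HepG2, and EHMT1 was called higher, at 0.60 ± 0.08 (adjusted p = 1.4e-04). The first nonirradiated HepG2 sample stood apart for KMT2D, SETD1A and SETD1B. The offset fit was not run without that sample, so no direction can be given for SETD1A here either. Human EHMT1 enters the offsets with 22217 exon bases, against 3894 coding bases, and mouse Ehmt1 with 8116 exon bases. Long coding genes as a class changed by GC content as the members did. In HepG2 those over 55% GC moved from a median of -0.19, with 31.5% lower, to -0.65, with 69.9% lower, and those under 50% GC from -0.95 to -0.02, with 23.7% lower. With offsets the medians over 55% and under 50% GC were -0.31 and -0.11 in HEK293 cells, -0.37 and -0.04 in Neuro2a cells, and -0.28 and 0.09 in HippCulture, so an order by GC content remained among long genes, turned around.

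The offsets also moved the median of all genes tested, from -0.08 to 0.22 in HepG2, from -0.08 to 0.06 in HEK293 cells, from -0.14 to 0.07 in Neuro2a cells and from -0.04 to 0.03 in HippCulture. Relative to that median the GC-rich members lay between -1.60 and -1.10 in HepG2, KMT2A at -0.37, SETD2 at -0.26, KMT2C at -0.21 and ASH1L at -0.06. The shares of all genes called in this fit were 29.5% lower and 45.8% higher in HepG2, 15.5% and 25.2% in HEK293 cells, 21.8% and 32.7% in Neuro2a cells, and 17.9% and 26.1% in HippCulture.

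In Neuro2a the fit with offsets left Setd1a at -1.0 ± 0.17, Kmt2d at -0.83 ± 0.14 and Kmt2b at -0.55 ± 0.21 among the genes called lower, with Nsd1 at -0.65 ± 0.25 as the only other member. Setd2 came to 0.05 ± 0.11 and Ash1l to -0.01 ± 0.11. In HippCulture Kmt2d, at -0.48 ± 0.11, Kmt2b, at -0.42 ± 0.10, and Kmt2a, at -0.26 ± 0.09, were lower. In HEK293 no member was lower by edgeR, at an adjusted or an unadjusted p under 0.05, while KMT2C at 0.56 ± 0.12, EHMT1 at 0.46 ± 0.12 and ASH1L at 0.45 ± 0.12 were higher. With offsets and the replicate block together, which pairs the HEK293 samples, KMT2B, KMT2D, SETD1B and NSD1 were lower there, against 25.0% of all genes, and KMT2C, SETD2, ASH1L and EHMT1 higher, against 36.0%.

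**Figure D4:**
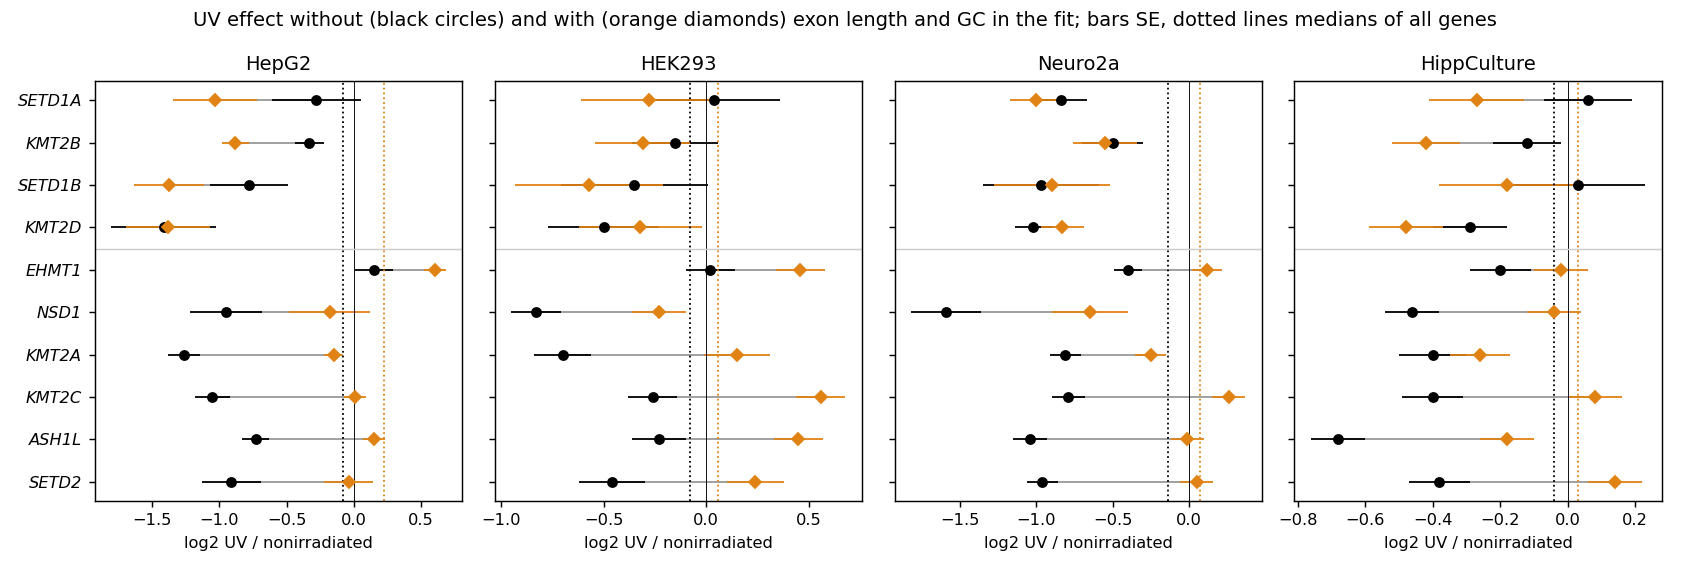
Log2 fold change (x axis) of the 10 genes (y axis, human exon GC content rising upwards) without (black circles) and with (orange diamonds) exon length and GC content in the fit, in the 4 cell types, with standard errors as bars. Dotted lines are the medians of all genes tested under each fit and the grey line parts the 4 GC-rich members (top) from the other 6. In HepG2 the diamonds of the GC-rich members lie at -0.88 to -1.38 and those of the other 6 at -0.18 to 0.60.

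The interaction terms changed with it as well. With offsets the difference between HEK293 and HepG2 was 0.59 for KMT2C (edgeR adjusted p = 0.013), 0.35 for KMT2A (adjusted p = 0.21) and 0.34 for ASH1L (adjusted p = 0.12). That between HippCulture and Neuro2a was 0.74 for Setd1a (adjusted p = 0.027), 0.64 for Nsd1 (adjusted p = 0.054), 0.37 for Kmt2d (adjusted p = 0.2), 0.11 for Setd2 (adjusted p = 0.58) and 0.03 for Kmt2a (adjusted p = 0.91). KMT2C and Setd1a were thus the members whose difference passed in both fits. For Setd1a 51.8% of the exon bases also belong to Gm49388 on the same strand, and the part of that gene in the difference was not tested. The share of all genes whose difference passed with offsets is not given.

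Other enzymes and partners of histone methylation were set beside the members. Of 27 other lysine methyltransferase genes, 6 fell and 8 rose in HepG2, 5 and 6 in HEK293 cells, 10 and 8 in Neuro2a cells, and 7 and 5 in HippCulture, with medians between -0.16 and -0.02. Their exons are shorter, with a median of 6988 bases in HEK293 cells against 14394 for the members. The 2 lowest over the 4 cell types were SETD7 and SETD5. SETD5, a SET domain protein close to KMT2E, fell in all 4, at -1.40 ± 0.17, -0.97 ± 0.12, -1.65 ± 0.11 and -0.78 ± 0.10, and with offsets lost its call in Neuro2a (-0.24) and HippCulture (-0.02). SETD7 fell in 3, at -1.34 ± 0.14 in HEK293 cells, -1.69 ± 0.15 in Neuro2a cells and -0.82 ± 0.11 in HippCulture, with -1.09 ± 0.46 in HepG2 (edgeR adjusted p = 0.056). At the other end, SMYD2, a short methyltransferase gene with targets beyond histones, rose in all 4, at 0.96 ± 0.07, 0.74 ± 0.13, 1.13 ± 0.10 and 0.85 ± 0.09. SMYD5 rose in HepG2, Neuro2a and HippCulture, at 1.03 ± 0.07, 0.69 ± 0.11 and 0.58 ± 0.10.

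Subunits of the complexes in which KMT2 and SETD1 enzymes work moved in both directions. Of 16, 8 fell and 7 rose in HepG2, 5 and 5 in HEK293 cells, 10 and 6 in Neuro2a cells, and 7 and 5 in HippCulture. DPY30, a small subunit common to all of these complexes, rose at 1.12 ± 0.07 in HepG2, 0.98 ± 0.16 in HEK293 cells, 1.01 ± 0.13 in Neuro2a cells and 0.76 ± 0.14 in HippCulture, and BOD1 at 1.34 ± 0.09, 0.91 ± 0.14, 1.35 ± 0.10 and 0.83 ± 0.09. BOD1L1, a SETD1A partner with human exons of 15860 bases, fell at -1.26 ± 0.12, -1.53 ± 0.23, -1.14 ± 0.09 and -0.61 ± 0.11. KDM6A, the demethylase that sits in the KMT2C and KMT2D complexes, fell at -1.24 ± 0.32, -0.64 ± 0.19, -1.23 ± 0.18 and -0.45 ± 0.12. The rising ones have short exons, of 2745 bases in human DPY30 and 2018 bases in BOD1, and stayed called with length and GC offsets in all 4 cell types. KDM6A lost its call in all 4 with offsets (-0.52, -0.10, -0.14 and 0.16), and BOD1L1 in HepG2 (-0.19), Neuro2a (-0.15) and HippCulture (-0.12).

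Of 20 histone lysine demethylase genes, which remove the marks, 13 fell and 4 rose in HepG2, 10 and 0 in HEK293 cells, 13 and 3 in Neuro2a cells, and 11 and 3 in HippCulture. KDM7A, at -1.36 ± 0.08, -1.68 ± 0.24, -2.23 ± 0.17 and -0.79 ± 0.17, and JMJD1C, at -0.92 ± 0.07, -1.04 ± 0.15, -1.07 ± 0.11 and -0.44 ± 0.10, fell in all 4 cell types. Both are AU-rich, with 38.7% and 39% exon GC content in human. At the other end KDM8 rose in HepG2 (0.57 ± 0.13), and RIOX1 rose in Neuro2a cells (0.62 ± 0.17) and HippCulture (0.78 ± 0.14). With offsets these 3 calls were lost, JMJD1C was lower in none of the 4 and higher in Neuro2a (0.32) and HippCulture (0.31), and KDM7A lost its call in HippCulture (-0.04).

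The median log2 fold change of the arginine methyltransferases was 0.55 in HepG2, 0.29 in HEK293 cells, 0.52 in Neuro2a cells and 0.28 in HippCulture. Of the 8 tested, 6 rose and 1 fell in HepG2, 1 and 0 in HEK293 cells and 5 and 1 in Neuro2a cells, and of the 9 tested in HippCulture 5 rose and 0 fell. PRMT1, the main enzyme of asymmetric arginine methylation, rose at 1.80 ± 0.10, 1.37 ± 0.24, 1.5 ± 0.11 and 0.86 ± 0.09 in the 4 cell types. PRMT5, the main enzyme of symmetric methylation, rose at 1.00 ± 0.06 in HepG2, 0.60 ± 0.10 in Neuro2a cells and 0.66 ± 0.09 in HippCulture, with 0.72 ± 0.31 in HEK293 cells (edgeR adjusted p = 0.075). CARM1 stood at 0.63 ± 0.08 in HepG2 (adjusted p = 9.3e-05) and, in another species, at -0.91 ± 0.16 in Neuro2a cells (adjusted p = 2.4e-04). The difference was not tested, and with offsets the HepG2 value was -0.12 (adjusted p = 0.21). PRMT3 passed in none of the 4 by edgeR, at -0.26 ± 0.11 in Neuro2a cells (adjusted p = 0.051) and 0.17 ± 0.12 in HepG2. In Neuro2a cells it passed as lower with DESeq2's size factors, the other 3 filters and the replicate block (adjusted p from 0.0047 to 0.037), and with scaling to library sizes alone (-1.45), but not with DESeq2's own test (adjusted p = 0.084). With offsets PRMT3 passed as higher in HepG2 (0.98), HEK293 (0.61) and Neuro2a (0.35).

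Among 9471 other coding genes tested in all 4 cell types, the 3 whose log2 fold changes lay nearest to the members' medians were PCBP2, DIP2A and ANKRD52. Their Euclidean distances over the 4 values were 0.0786, 0.118 and 0.145. PCBP2, a poly(C)-binding protein gene, stood at -0.83 in HepG2, -0.23 in HEK293 cells, -0.88 in Neuro2a cells and -0.34 in HippCulture. DIP2A stood at -0.74, -0.33, -0.86 and -0.33, and ANKRD52 at -0.97, -0.35, -0.86 and -0.35. The HepG2 value of PCBP2 had an SE of 0.44 and did not pass (edgeR adjusted p = 0.11). Without pairing none of the 3 passed in HEK293 cells.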

How the data were processed

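Per the labels and the study's methods, reads were mapped to hg38 or mm10 with TopHat2 2.1.1, and the deposited values are whole read counts per gene that the authors made with featureCounts (1.5.3 for HepG2, 1.6.1 otherwise) on GENCODE 28 or M17 exons, without normalization. Reads over several genes were counted for each, and no strand option is named. All 24 samples were used. The 10 genes and the other lists were chosen with earlier results of these data known.

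From these counts, genes whose nonirradiated mean reached 0.5 CPM were tested per cell type with edgeR 4.0.16 (TMM, quasi-likelihood, Benjamini-Hochberg over all genes tested), called at an adjusted p under 0.05. Differences between cell types were interaction terms. Offsets were natural splines (5 df) on log exon length and GC content per sample, in which 0.5 was added to counts. Normalized counts used DESeq2 1.42.0 size factors. Exon GC content came from the genomes, and symbols and coding sequences from GENCODE 44 and M21, matched by Ensembl identifier for 99% of human and 99.82% of mouse genes. Spearman's ρ and exact permutations used scipy 1.17.1. The code was tested on simulated counts.

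The study calls its replicates biological, without saying how they were separated, and p-values measure the spread between these samples. Neither labels nor methods say that same-numbered samples were paired. Same-numbered nonirradiated and irradiated samples deviated together most in HEK293 (correlations 0.59, 0.30 and 0.39), the basis for pairing there. The correlations were 0.08 to 0.23 in Neuro2a cells, 0.05 to 0.13 in HippCulture and -0.01 to 0.04 in HepG2. Named genes besides the 10 are the 2 lowest and 2 highest of each other list by mean log2 fold change over the 4 cell types, and the 3 coding genes nearest to the members' medians. Alternatives were other size factors, library sizes alone, DESeq2, 3 filters, a replicate block, the offsets, and each sample left out.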

Additional observations from a re-analysis of the deposited data

Results flagged for a closer look

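The UV effect of 8 gene and species combinations differed between the cell types of a species by edgeR's interaction term. Between HEK293 and HepG2 the differences were 0.66 for KMT2A, 0.90 for KMT2C and 0.60 for ASH1L on the log2 scale. Between HippCulture and Neuro2a they were 0.42 for Kmt2a, 0.73 for Kmt2d, 0.90 for Setd1a, 0.58 for Setd2 and 1.14 for Nsd1. In each case the log2 fold change was the higher one in the cell type named first. Of all genes tested, 4.85% were significantly higher and 3.10% lower in HEK293 cells, and 16.1% and 8.41% in HippCulture. KMT2A and ASH1L in human and Kmt2a in mouse lost their calls in most fits with a sample left out. With length and GC offsets only KMT2C (edgeR adjusted p = 0.013) and Setd1a (adjusted p = 0.027) passed. Setd1a shares 51.8% of its exon bases with Gm49388.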

How the results depend on the processing

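With DESeq2's size factors, DESeq2 as the test, at least 1 count, or 0.5 CPM over all samples, every count of members and of genes called stayed within 1.5 times its value above. With at least 10 counts in every sample this also held, except that 5 members fell in HEK293 cells, where 4377 genes in all were called lower. Nsd1 and Setd1b in Neuro2a cells could not be tested with that filter. The replicate block gave 6 members lower in HEK293 cells, 8 in HepG2, 10 in Neuro2a cells and 7 in HippCulture, where Ehmt1 was added. Over all genes it called lower 7228 of 20472 in HEK293 cells and 8157 of 20117 in HepG2. In Neuro2a cells these were 6036 of 17425 and in HippCulture 4976 of 18488. The block assumes that same-numbered samples were paired, which no label states and which rests on correlations highest in HEK293 cells. It gave 3 differences between the human lines and 7 between the mouse cell types. For the counts of differences under this and the other alternatives, no share of all genes is given.

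Scaling to library sizes alone moved the median of all genes to -1.38 in HepG2, -0.84 in HEK293 cells, -1.32 in Neuro2a cells and -0.59 in HippCulture, and that of the members to -2.14, -1.06, -2.09 and -0.89. Genes called lower then numbered 15830, 11168, 12852 and 9149 and genes called higher 1734, 1557, 1058 and 1320. In HEK293 cells 10 members fell, against 54.6% of all genes tested. Between the human lines 5 differences passed and between the mouse cell types 10. Signs turned for EHMT1 in HepG2 (-1.15) and HEK293 (-0.75), SETD1A in HEK293 cells (-0.73) and Setd1a in HippCulture (-0.49). They also turned for SMYD5 (-0.28), SMYD2 (-0.35), DPY30 (-0.18), KDM8 (-0.73), RIOX1 (-1.13), PRMT3 (-1.14), CARM1 (-0.67) and PRMT5 (-0.30) in HepG2, SMYD2 (-0.03), RIOX1 (-0.64) and CARM1 (-0.56) in HEK293 cells, and SMYD5 (-0.50), SMYD2 (-0.07), DPY30 (-0.18), RIOX1 (-0.57) and PRMT5 (-0.60) in Neuro2a cells. The cause was the scaling, which lowered the median of all genes.

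With offsets for length and GC content 4 members fell in HepG2, 0 in HEK293 cells, 4 in Neuro2a cells and 3 in HippCulture, and 1 rose in HepG2 and 3 in HEK293 cells. Of all genes tested, 29.5%, 15.5%, 21.8% and 17.9% fell in that order, and 45.8% rose in HepG2 and 25.2% in HEK293 cells. In each species 1 difference passed, and genes called lower numbered 3170 in HEK293 cells and 3802 in Neuro2a cells. With offsets and the replicate block 4 members fell in HepG2 and 6 in Neuro2a cells, where 5790 and 4080 genes fell in all. As members 1 rose in HepG2, 4 in HEK293 cells and 1 in Neuro2a cells, where 9134, 7368 and 6129 genes rose in all. Between the human lines 5 differences passed and between the mouse cell types 2. Signs turned, to the same value with and without the block, for KMT2C (0.01) and ASH1L (0.15) in HepG2, KMT2A (0.15), KMT2C (0.56), SETD2 (0.24) and ASH1L (0.45) in HEK293 cells, Kmt2c (0.26), Setd2 (0.05) and Ehmt1 (0.12) in Neuro2a cells, and Kmt2c (0.08) and Setd2 (0.14) in HippCulture. Among the other genes they turned for JMJD1C (0.14, 0.15 with the block), RIOX1 (-0.46, -0.45) and CARM1 (-0.12) in HepG2, PRMT3 (0.61, 0.63), RIOX1 (-0.41) and PCBP2 (0.19) in HEK293 cells, the last 2 called only with the block, JMJD1C (0.32), RIOX1 (-0.01, -0.0047) and PRMT3 (0.35) in Neuro2a cells, and KDM6A (0.16) and JMJD1C (0.31) in HippCulture. Values that passed the test neither before nor after, such as CARM1 in HEK293 (-0.27 with offsets), are not listed.

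Leaving out each sample in turn gave 6 to 8 members lower in HepG2, 2 to 3 in HEK293 cells, 8 to 9 in Neuro2a cells and 5 to 7 in HippCulture, 0 to 2 higher in HepG2 and 0 in the other 3, and 1 to 3 and 4 to 6 differences. Over all genes 7609 to 8789, 4125 to 5346, 5322 to 5664 and 3859 to 4592 were called lower in that order, and 7098 to 7849 higher in HepG2. The log2 fold change of SETD1A in HepG2 ran from -0.53 to 0.22, and no other member turned its sign past the threshold in these fits. NSD1 in HepG2 and Nsd1 and Setd1b in Neuro2a cells had normalized counts under 60, and 3 samples a group limit every call.

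Over all genes tested ρ with exon length was -0.08 in HepG2, -0.21 in HEK293 cells, -0.27 in Neuro2a cells and -0.22 in HippCulture, nearer to 0 than over coding genes, and ρ with GC content was 0.42 in HEK293 cells and 0.50 in HippCulture. With coding length it was -0.40, -0.41, -0.42 and -0.34. With the 3′ UTR length of the transcript that has the longest coding sequence it was -0.45, -0.48, -0.43 and -0.45. Without a sample ρ ran from -0.50 to -0.49 with length in HEK293 cells, from -0.53 to -0.52 in Neuro2a cells, and with GC content from 0.43 to 0.45 in HEK293 cells and from 0.43 to 0.50 in HippCulture. The offsets were not applied to these values.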
